A study of Mus musculus with 12 samples.

Results

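The genes described here are 35 genes of glucose uptake, glycolysis, lactate and glycogen handling, with metabolic targets of the hypoxia-inducible factors (HIF). They were taken by gene symbol from a count table of 35976 genes, and all 35 were listed in it. Retinas of mouse pups were compared between room air (normoxia) and oxygen-induced retinopathy (OIR), a model in which high oxygen makes retinal vessels regress and the return to room air leaves the retina relatively hypoxic. Pups of the C57BL/6 strain, labelled WT, spent postnatal days 7 to 12 in 75% oxygen and the next 3 days in room air, and their retinas and those of the normoxia pups were taken at postnatal day 15. The second pair of groups carries the label Caspase1 knockout (Casp1 KO), with retinas from normoxia or from 3 days after OIR. For these pups the age, the oxygen level, the days of exposure and the deleted part of the gene were not given in the sources used here. Each of the 4 groups held 3 libraries, 12 in all. Nothing in the labels says whether the libraries of a group came from separate pups, so the p-values rest on the spread between libraries. For each gene the test draws that spread toward the spread of other genes at a similar level. Where a pair of groups was compared, it did so almost fully, so a gene's own libraries had almost no weight in its p-value. A small p-value can therefore go with libraries that lie far apart.

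The reads of Casp1 itself went against the labels. The libraries labelled WT held 2, 0 and 1 Casp1 reads in normoxia and 0, 1 and 3 in OIR, while those labelled Casp1 KO held 45, 14 and 10 in normoxia and 22, 19 and 16 in OIR. Reads outside a deleted part would be no check of a knockout, and the deleted part is not given here. The genotypes are therefore named here only as labels, and a direction between them is a direction between labels.

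Photoreceptors are known for aerobic glycolysis: they turn much of their glucose into lactate even when oxygen is plentiful. Glucose enters through transporters such as Slc2a1 (GLUT1), hexokinases trap it, phosphofructokinases commit it to glycolysis, lactate dehydrogenases interconvert pyruvate and lactate, and Slc16a3 (MCT4) exports lactate from glycolytic cells. In low oxygen HIF escapes degradation and drives many of these genes, along with mitophagy receptors and carbonic anhydrases.

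Libraries held 3391203 to 22815830 reads. WT normoxia replicate 2 was the deepest, and the others reached at most 5657873, so that 3 reads, the most that a count of 0 allows, corresponded to 0.134 to 0.871 CPM (counts scaled to 1000000 reads of the library total, after TMM scaling between libraries). WT OIR replicate 3 stood apart from its group: its counts differed from those of the other two WT OIR libraries by 14.03 and 13.2 chi-square units per degree of freedom, against 5.15 between replicates 1 and 2. Rod markers, which define most retinal cells, summed to 47323 to 57844 CPM in the 12 libraries and none of the 10 was at 0 in any library. Several marker lists moved with the groups. The sum of 8 Müller glia markers, none of which was at 0 in any library, ran from 2777 to 2925 CPM in WT normoxia, 2174 to 2309 in WT OIR, 2005 to 2120 in Casp1 KO normoxia and 2880 to 3099 in Casp1 KO OIR. Of these 8 genes, 3 fell in OIR in the libraries labelled WT and 6 rose in those labelled Casp1 KO. The 8 markers of the retinal pigment epithelium summed to 715 to 773, 797 to 864, 798 to 836 and 1181 to 1256 CPM in the same order of groups, and 9 lens markers to 588 to 688, 396 to 889, 733 to 761 and 1265 to 1397 CPM. Best1 and Mip, one of each list, were at 0 in some libraries. The 6 oligodendrocyte markers summed to 222 to 275 CPM in WT normoxia and 35.6 to 67.1 CPM in the other 9 libraries, with Mobp and Mog at 0 in some of them, and the ganglion cell sum was lower in OIR under both labels. In WT OIR replicate 3 the lens, red blood cell and endothelial sums were 396, 90.9 and 139.6 CPM, below the other two WT OIR libraries in each case.

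**Figure D1:**
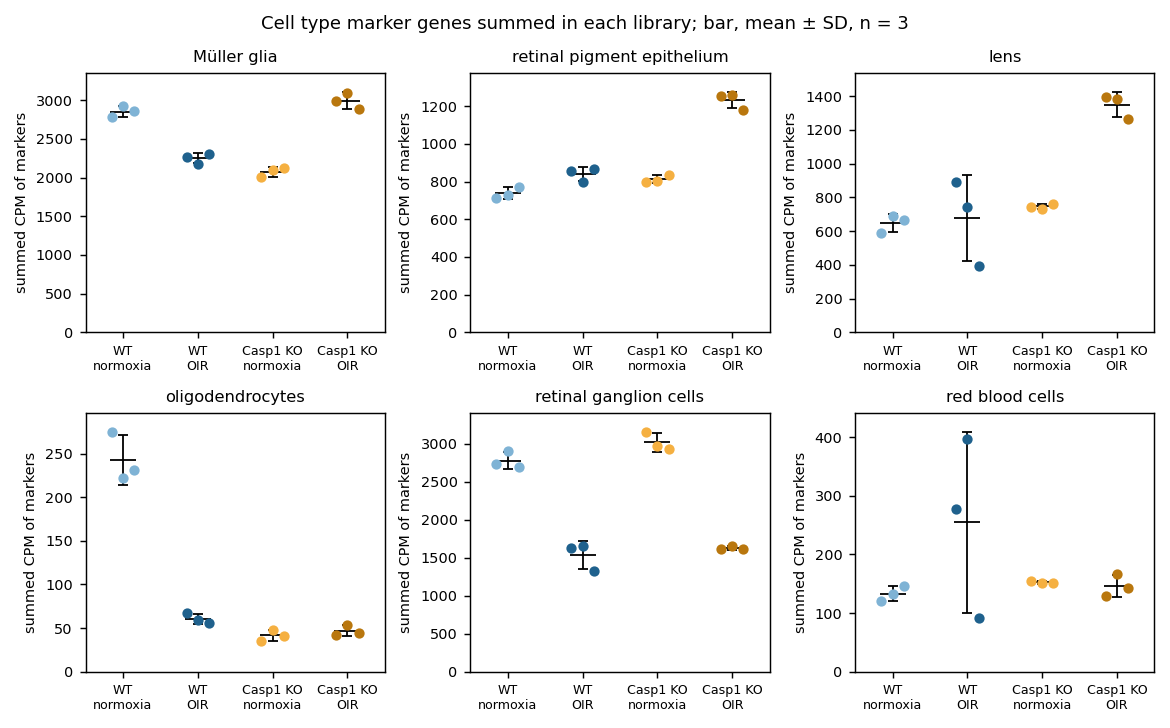
Summed CPM of the marker genes of 6 cell types in each of the 12 libraries (points), with the mean ± SD of the 3 libraries of a group. The Müller glia sum was lowest in Casp1 KO normoxia (2005 to 2120 CPM) and highest in Casp1 KO OIR (2880 to 3099 CPM), and the pigment epithelium and lens sums were highest in Casp1 KO OIR.

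HIF binds a short core, and the promoters of the members were therefore searched for ACGTG and GCGTG on both strands, with overlapping matches counted once as a stretch. RefSeq windows for GRCm38.p6, from 250 bases before to 50 after a start, were found for 33 of the 35 members, with 48 windows in all. ACGTG was present in 25 of the 48 windows (52.1%) and in 19.6% of all 32851 windows, GCGTG in 28 (58.3%) and in 32.4%, and at least 1 of them in 38 (79.2%) and in 43.8%. A match is a string of letters and no evidence of binding. The lines that follow give the 250 bases upstream of the start for the 4 members with the largest change among those called in OIR in the libraries labelled WT, and for 3 more chosen after the values were seen because the differences between labels (Slc16a3, Slc2a1) or the rise under both labels (Bnip3) turn on them. Capitals mark the matches, read as ACGTG or GCGTG or, for the other strand, CACGT or CACGC.
Slc16a3: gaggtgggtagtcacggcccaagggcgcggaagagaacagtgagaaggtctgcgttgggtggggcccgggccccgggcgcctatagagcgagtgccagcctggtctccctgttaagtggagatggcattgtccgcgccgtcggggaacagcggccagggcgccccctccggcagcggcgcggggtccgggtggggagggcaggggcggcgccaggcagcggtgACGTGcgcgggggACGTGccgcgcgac
Slc2a1: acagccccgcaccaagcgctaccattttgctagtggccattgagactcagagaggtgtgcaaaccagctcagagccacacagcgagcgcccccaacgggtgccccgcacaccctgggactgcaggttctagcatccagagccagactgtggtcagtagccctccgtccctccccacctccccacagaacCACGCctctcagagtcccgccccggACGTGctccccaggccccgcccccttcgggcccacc
Hk2: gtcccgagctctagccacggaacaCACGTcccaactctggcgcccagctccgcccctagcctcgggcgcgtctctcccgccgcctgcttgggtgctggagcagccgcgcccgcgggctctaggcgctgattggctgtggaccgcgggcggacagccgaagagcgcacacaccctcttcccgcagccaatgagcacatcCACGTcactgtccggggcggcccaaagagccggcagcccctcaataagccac
Pfkm: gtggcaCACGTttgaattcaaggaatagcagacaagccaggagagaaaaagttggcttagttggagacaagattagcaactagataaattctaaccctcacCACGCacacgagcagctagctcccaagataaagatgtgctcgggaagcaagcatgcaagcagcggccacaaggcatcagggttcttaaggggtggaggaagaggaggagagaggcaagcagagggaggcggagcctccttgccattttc
Pfkp: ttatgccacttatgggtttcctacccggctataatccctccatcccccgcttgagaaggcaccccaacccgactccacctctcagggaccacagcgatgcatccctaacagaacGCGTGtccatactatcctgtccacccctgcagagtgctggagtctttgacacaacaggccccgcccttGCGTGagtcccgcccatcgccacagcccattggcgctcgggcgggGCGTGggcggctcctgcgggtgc
Ldhb: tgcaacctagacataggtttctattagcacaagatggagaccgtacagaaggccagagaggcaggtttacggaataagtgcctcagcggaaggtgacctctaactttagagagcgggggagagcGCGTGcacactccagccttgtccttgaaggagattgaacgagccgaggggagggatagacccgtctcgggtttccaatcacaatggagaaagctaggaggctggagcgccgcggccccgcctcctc
Bnip3: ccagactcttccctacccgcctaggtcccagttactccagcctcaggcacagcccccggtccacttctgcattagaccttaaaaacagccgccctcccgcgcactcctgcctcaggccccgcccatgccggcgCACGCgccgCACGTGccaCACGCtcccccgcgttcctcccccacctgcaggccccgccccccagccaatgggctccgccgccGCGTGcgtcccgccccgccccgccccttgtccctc
The windows are chr11:120948817-120949066 (plus strand), chr4:119108495-119108744 (plus), chr6:82774455-82774704 (minus), chr15:98108221-98108470 (plus), chr13:6648772-6649021 (minus), chr6:142507958-142508207 (minus) and chr7:138909507-138909756 (minus), each printed in the direction of its gene. Slc16a3 held 2 ACGTG matches within 27 bases of the start, and Bnip3 held 4 stretches of capitals within 117 bases of it. Pfkp and Ldhb, of which the first was called higher and the second lower in WT OIR, both held GCGTG and no ACGTG.

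The library kit reads only the 3' end of a poly(A) transcript, so CPM do not grow with transcript length. Levels of different genes can still be set side by side only with care, since reads of a shared or near-identical 3' end may be lost or misplaced. In the last 500 bases of the principal annotated transcript, stretches of 75 bases were compared with every other annotated transcript (GENCODE vM21). For Gapdh, the glyceraldehyde 3-phosphate dehydrogenase, 84.0% of the stretches also occurred in other genes, 75 of the 78 being pseudogenes. For Eno1, an enolase, the share was 62.0%, in Eno1b and 1 pseudogene. Ldhb (17.1%), Bnip3 (7.51%) and Pgk1 (1.88%) shared less. The end of Pfkp lies wholly within Pitrm1, a gene of the opposite strand, and 62.9% of the end of Bnip3 and 7.98% of that of Pdha1 lie in annotated genes overlapping them. Pitrm1 itself was counted at 7.09 to 21.1 CPM, and its values by library are given with those of Pfkp. The counts of these 7 members are uncertain to that extent, since neither the strand setting of the count nor the treatment of reads with several matches is given in the sources used here. The other 28 members shared no such stretch. The search saw only exact matches to annotated transcripts, so near-identical copies and copies outside the annotation would be missed, for these members too.

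The members took 0.735% to 0.782% of the reads in WT normoxia, 0.726% to 0.818% in WT OIR, 0.635% to 0.668% in Casp1 KO normoxia and 0.759% to 0.848% in Casp1 KO OIR. Aldoa, the aldolase of muscle and of most tissues, and Pkm, the pyruvate kinase, were the most abundant, at 1294 to 2072 and 1450 to 2010 CPM over the 12 libraries. Eno2, Hk1 and Gpi1 followed, each between 355 and 573 CPM. Gapdh (25.0 to 66.9 CPM), Pgk1, the phosphoglycerate kinase (2.41 to 17.8 CPM), Pgam1, the phosphoglycerate mutase (26.5 to 50.2 CPM), and Eno1 (15.1 to 25.1 CPM) were all below Tpi1, the step before them, and Pkm, the step after. The end of Pgam1 is not among those shared with other genes in the search for exact matches, and the reason for these low levels was not tested. At the low end, Car9, the hypoxia-induced carbonic anhydrase, had 14 reads in all, and Pfkfb4 had as few as 2 reads in a library.

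In the libraries labelled WT, most of the glycolytic genes were not called in OIR, and a phosphofructokinase was called higher while another was called lower. Pfkp, the platelet-type phosphofructokinase, and Bnip3, a mitophagy receptor, were called higher. The Pfkp libraries of the groups overlapped, and its call was lost with DESeq2 (adjusted p = 0.492) and with both stricter filters on low counts. Hk2, a hexokinase, Pfkm, the muscle-type phosphofructokinase, Aldoc, the brain aldolase, and Ldhb, the heart-type lactate dehydrogenase subunit, fell. These are 6 of 35 members (17.1%), of which 2 were higher and 4 lower, where 3.88% of the 22853 genes tested were called, 1.58% higher and 2.29% lower. All genes include many with few reads, in which few calls can be made. The members and lists were also chosen with earlier results of these data known. Both limits hold for every such share given below. The median log2 fold change was 0.01 for the members and 0.04 for all genes tested. The libraries of the 2 groups did not overlap for 6 members higher and 6 lower in OIR, where 16.7% of all genes did not overlap (8.53% higher and 8.16% lower). Markers of some inner retinal neurons were lower beside these genes, with 5 of 8 amacrine, 2 of 5 horizontal and 6 of 8 ganglion cell markers called lower in WT OIR. Of the 8 bipolar cell markers 1 was called lower, and their sums overlapped (1524 to 1634 CPM in normoxia, 1475 to 1639 in OIR). The amacrine sum went from 730 to 784 CPM down to 476 to 579, and the horizontal sum from 297 to 323 down to 198 to 222. The astrocyte sum (93.4 to 101 CPM in normoxia, 138 to 152 in OIR) and the microglia and macrophage sum (59.3 to 75.7 and 106 to 111) were higher. Of the 5 astrocyte markers 1 was called higher and 0 lower. Their median log2 fold change was -0.34, so the higher sum does not hold for that list as a whole. Of the 9 microglia and macrophage markers 2 were called higher and 0 lower, with a median of 1.07. The part of any of these cell types was not tested. With each library left out in turn the count ran from 2, without WT normoxia replicate 3, to 10, without WT OIR replicate 3. In bulk retina, fewer cells of a type and less RNA per cell cannot be told apart, here or in the comparisons that follow.

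In the libraries labelled Casp1 KO the same comparison gave 13 members, all higher, among 35 (37.1%), where 4.64% of the 22387 genes tested were called, 2.61% higher and 2.03% lower. They cover glucose uptake (Slc2a1), the upper steps of glycolysis (Hk1, Gpi1, Pfkl, Pfkp, Aldoa), its regulator Pfkfb3, lactate (Ldha, Slc16a3), glycogen (Gys1, Pygm) and both mitophagy receptors (Bnip3, Bnip3l). No member of lower glycolysis, from Gapdh to Pkm, was called, though Pkm was in 4 of 16 alternatives. The median log2 fold change was 0.36 for the members and -0.002 for all genes tested. The groups did not overlap for 18 members higher and 1 lower, where 17.1% of all genes did not overlap (8.56% and 8.58%). In the same comparison 6 of 8 Müller glia, 4 of 8 pigment epithelium and 6 of 9 lens markers were called higher, and 0 lower. Of 10 rod markers 4 were called higher and 1 lower, and of 8 ganglion cell markers 5 were called lower and 0 higher. The part of these cell types was not tested. Of the 6 members called under the label WT, 2 were also among the 13 members called under the label Casp1 KO: Bnip3 and Pfkp. The count ran from 8, without Casp1 KO normoxia replicate 2, to 12 with a library left out, and was 7 with all 12 libraries in 1 fit. Slc2a1, Slc16a3, Pfkl, Pfkp, Pfkfb3, Aldoa and Pygm were called under every alternative that was run except a threshold on the fold, which is left aside in such statements here.

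The difference between these changes was tested directly as an interaction in a fit to all 12 libraries. It was called for 6 of 35 members (17.1%), Slc16a3, Pygm, Pfkm, Slc2a1, Pfkl and Tpi1, where 1.13% of the 24484 genes tested were called. All 6 were more positive under the label Casp1 KO, as were 0.604% of all genes, while 0.527% were more negative. Only Slc16a3, Slc2a1 and Pygm kept the call under every alternative run. The count was 10 without WT OIR replicate 3 and 3 without Casp1 KO normoxia replicate 1 or 3 or Casp1 KO OIR replicate 2. The median over members was 0.37, and -0.04 over all genes. The Müller glia sum was likewise lower in OIR than in normoxia under the label WT and higher under the label Casp1 KO, and the pigment epithelium and lens sums were highest in Casp1 KO OIR. The part of these in the result was not tested.

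Between labels in normoxia, 4 of the 34 members tested were lower in the libraries labelled Casp1 KO, Slc16a3, Hk2, Tpi1 and Aldoa, and none was higher (11.8%, where 1.04% of 22480 genes tested were called, 0.476% higher and 0.56% lower). The groups did not overlap for 0 members higher and 12 lower, where 12.4% of all genes did not overlap (5.91% and 6.53%). The median was -0.22 for the members and 0.0062 for all genes. The Müller glia sum was lower as well, with 6 of its 8 markers called lower, and so were all 6 oligodendrocyte markers, 3 of 8 bipolar, 2 of 5 horizontal and 1 of 8 amacrine cell markers. The horizontal cell sum was 219 to 244 CPM against 297 to 323, and, as for Hk2, WT normoxia lay above the other 9 libraries. The amacrine cell sum was 569 to 640 CPM against 730 to 784. The part of these cell types in the result was not tested. Between labels in OIR, 3 of 35 members were called (8.57%, where 0.575% of 22774 genes were, 0.263% higher and 0.312% lower). Slc2a1 and Pfkm were higher and Pfkp lower in the libraries labelled Casp1 KO. The groups did not overlap for 5 members higher and 1 lower, where 11.9% of all genes did not overlap (5.41% and 6.52%). None of these 3 calls was made with edgeR's likelihood ratio test, with either stricter filter on low counts, with the replicate block or without replicate 1 or 2 of either OIR group, while 5 members were called without WT OIR replicate 3. Between the same libraries, 6 of 9 lens, 3 of 8 pigment epithelium and 1 of 8 Müller glia markers were called higher under the label Casp1 KO. Called lower were 3 of 5 red blood cell and 1 of 8 endothelial markers. No marker of the other lists was called, and the part of these tissues was not tested.

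**Figure D2:**
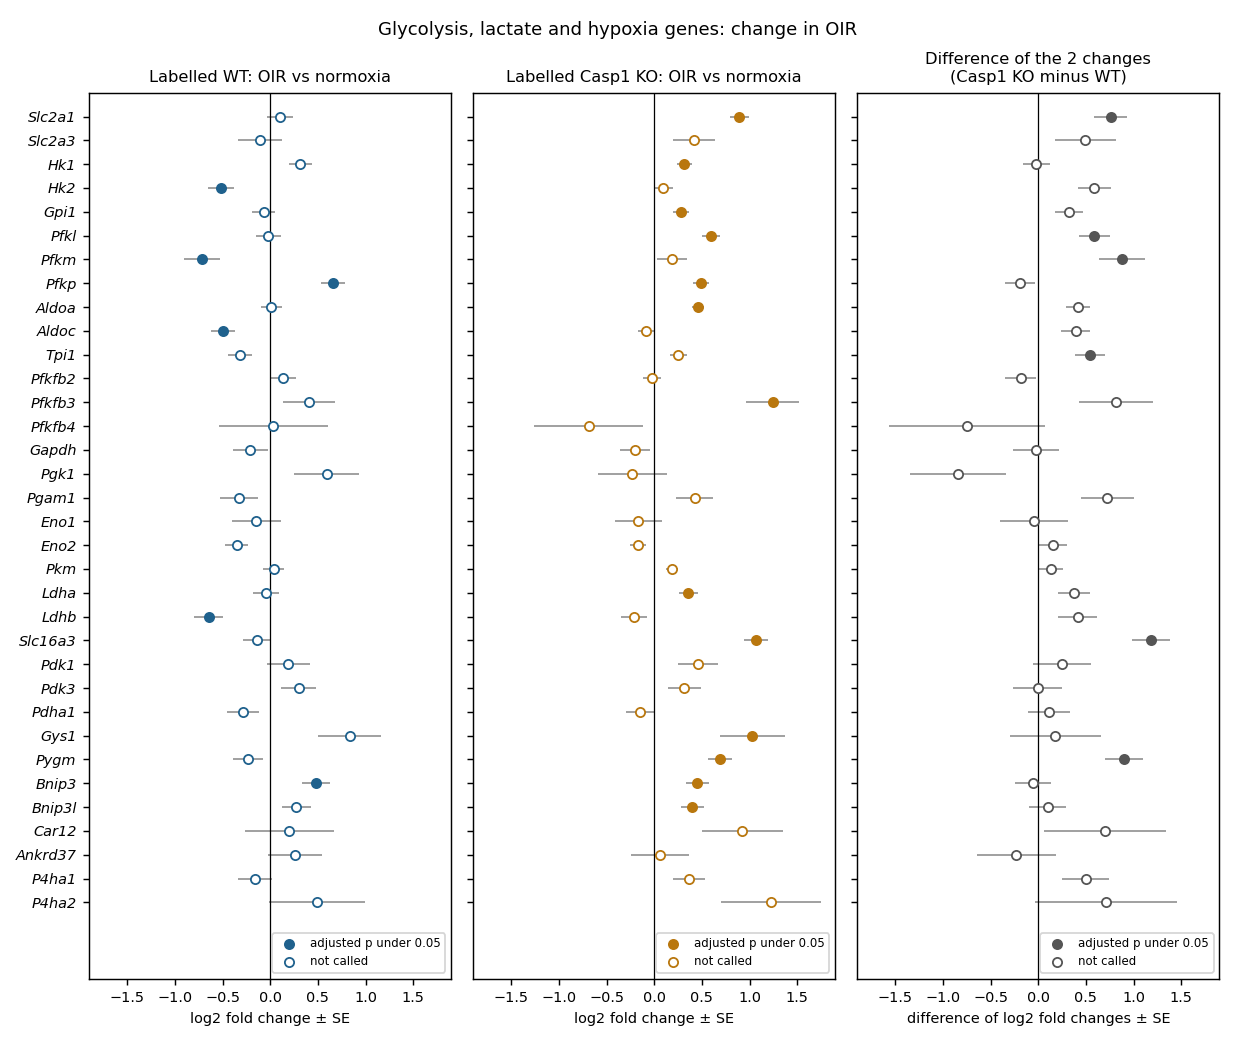
Log2 fold change in OIR (points) with its standard error (bars) for 34 members, in the libraries labelled WT (left) and Casp1 KO (middle), and the difference between the changes (right). Filled points have an adjusted p under 0.05: 6 on the left, in both directions, 13 in the middle, all higher, and 6 on the right. Car9 is left out because normoxia held no read of it.

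Among glucose transporters, Slc2a1 (GLUT1, chromosome 4 from 119108711 to 119137983), the main carrier of glucose across the blood-retina barrier, stood at 168, 131 and 147 CPM in WT normoxia and 129, 170.1 and 183 CPM in WT OIR, which overlap. It stood at 114, 119.7 and 137 CPM in Casp1 KO normoxia and 222, 228 and 231 CPM in Casp1 KO OIR, where every OIR library lay above all 9 others. The log2 fold change was 0.10 ± 0.14 (SE) under the label WT (adjusted p = 0.766) and 0.89 ± 0.10 under the label Casp1 KO (adjusted p = 3.88e-16). The changes differed by 0.76 ± 0.17 (adjusted p = 0.00259), and the OIR groups by 0.50 ± 0.14 (adjusted p = 0.0485). This last call was lost in 10 of 16 alternatives, without any 1 of the OIR libraries except WT OIR replicate 3 among them (highest adjusted p 0.506). Slc2a3 (GLUT3), the neuronal transporter, was at 18.7 to 36.5 CPM and was called in no comparison. It took 15.5% ± 2.80 (SD, n = 3) of the reads of the pair in WT normoxia and 11.5% ± 2.28 in Casp1 KO OIR.

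Hexokinases trap glucose in the cell. Hk1, which binds mitochondria and serves most neurons, was at 397, 464 and 416 CPM in WT normoxia and 573, 481 and 546 CPM in WT OIR, and at 439, 389.6 and 392 and 493, 561 and 453 CPM in the groups labelled Casp1 KO. OIR libraries lay above normoxia under both labels, with log2 fold changes of 0.31 ± 0.12 (adjusted p = 0.152) and 0.32 ± 0.08 (adjusted p = 0.00291), and only the second was called. The first was called with all 12 libraries fitted and without WT OIR replicate 3 (lowest adjusted p 0.0357). The second was lost in 4 of 16 alternatives, without Casp1 KO normoxia replicate 2 or 3 or OIR replicate 2 and with all 12 libraries fitted (highest adjusted p 0.12). Hk2, the hexokinase of photoreceptors, was at 212, 244 and 193 CPM in WT normoxia, 142, 156 and 159 CPM in WT OIR, 150.1, 138 and 150.5 CPM in Casp1 KO normoxia and 139.9, 173 and 152 CPM in Casp1 KO OIR. WT normoxia stood above the other 9 libraries, which overlapped with each other. Hk2 thus fell by 0.52 on the log2 scale in WT OIR (-0.52 ± 0.14, adjusted p = 0.00652) and was lower in normoxia under the label Casp1 KO (-0.56 ± 0.10, adjusted p = 2.35e-06). The first call was lost without WT normoxia replicate 2 (adjusted p = 0.192), while the second was made under every alternative. The change in OIR under the label Casp1 KO was 0.10 ± 0.10 (adjusted p = 0.71), and the difference between the changes, 0.59 ± 0.17, missed the threshold (adjusted p = 0.0501). That difference was called in 5 of 21 alternatives, DESeq2, the newer quasi-likelihood method and the fits without WT normoxia replicate 3, WT OIR replicate 3 or Casp1 KO OIR replicate 1 (lowest adjusted p 0.00578).

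Gpi1, the glucose 6-phosphate isomerase, had 389.9, 507 and 429 CPM in WT normoxia and 461, 394 and 419.8 CPM in WT OIR. The groups labelled Casp1 KO had 365, 376 and 385 and 423, 495 and 438 CPM without overlap, a change of 0.28 ± 0.08 (adjusted p = 0.0151). This call was lost in 5 of 16 alternatives, among them those without Casp1 KO normoxia replicate 1 or 2 or OIR replicate 2 (highest adjusted p 0.204).

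The phosphofructokinase subunits, whose enzyme commits glucose to glycolysis, moved apart. Pfkl, the liver type (chromosome 10 from 77986947 to 78010083), was at 188, 208 and 205 CPM in WT normoxia and 225, 199 and 174 CPM in WT OIR, and at 177, 155 and 177 and 236, 288 and 238 CPM under the label Casp1 KO. Casp1 KO OIR lay above the other 3 groups, with a change of 0.59 ± 0.09 (adjusted p = 5.62e-08) against -0.02 ± 0.13 under the label WT (adjusted p = 0.968). The difference of 0.59 ± 0.16 (adjusted p = 0.0354) was lost in 11 of 21 alternatives, 7 of which left out 1 library, WT normoxia 2 or 3, WT OIR 2, any of Casp1 KO normoxia or Casp1 KO OIR 2 (highest adjusted p 0.244).

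Pfkm, the muscle type (chromosome 15 from 98092589 to 98132451), had 65.01, 50.9 and 61.97 CPM in WT normoxia and 33.3, 42.7 and 32.5 CPM in WT OIR, which do not overlap. The groups labelled Casp1 KO had 45.03, 58.1 and 53.6 and 65.1, 64.6 and 46.3 CPM, which do. It fell under the label WT (-0.72 ± 0.19, adjusted p = 0.00614), with 0.19 ± 0.15 under the label Casp1 KO (adjusted p = 0.607). The changes differed by 0.87 ± 0.24 (adjusted p = 0.0331) and the OIR groups by 0.69 ± 0.19 (adjusted p = 0.0456). Pfkm was no longer called under the label WT without WT normoxia replicate 1 (adjusted p = 0.0901) or 3 (adjusted p = 0.0584). The difference between the changes was lost in 13 of 21 alternatives and that between the OIR groups in 11 of 16 (highest adjusted p 0.178 and 0.36). The libraries whose omission ended the first of these were WT normoxia 1 and 3, WT OIR 1, Casp1 KO normoxia 1 and 3 and Casp1 KO OIR 1 and 2, and the second was lost without replicate 1 or 2 of either OIR group.

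Pfkp, the platelet type (chromosome 13 from 6579768 to 6648777), had 288, 301 and 243 CPM in WT normoxia and 569, 536 and 222 CPM in WT OIR. The first and second WT OIR libraries held about the same level, and replicate 3, the library that stood apart, fell below all of WT normoxia. It rose under the label Casp1 KO from 258, 212 and 219 to 333, 330.0 and 298 CPM without overlap (0.49 ± 0.09, adjusted p = 3.30e-06). Under the label WT the change was 0.66 ± 0.12 (adjusted p = 1.73e-05). It was 0.98 without WT OIR replicate 3 and 0.43 without WT OIR replicate 1, and was called in both cases. With DESeq2 the adjusted p was 0.492, and with the stricter filters on low counts it was 0.114 and 0.0913. The OIR groups differed by -0.46 ± 0.13 (adjusted p = 0.0437) although their libraries overlapped, and this call was lost in 11 of 16 alternatives, without any 1 of the OIR libraries except WT OIR replicate 3 among them (highest adjusted p 0.833). Pitrm1, which holds the end of Pfkp, was at 15.98, 15.4 and 10.002 CPM in WT normoxia and 21.1, 19.7 and 7.09 CPM in WT OIR. Like Pfkp, it was lowest in replicate 3 of both groups and highest in WT OIR replicates 1 and 2. Under the label Casp1 KO it was at 16.04, 10.2 and 16.4 and 15.6, 12.04 and 19.3 CPM, which overlap, unlike those of Pfkp. Whether reads of one gene were counted for the other was not tested.

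The aldolases split fructose 1,6-bisphosphate. Aldoa was at 1718, 1786 and 1604 CPM in WT normoxia, 1859, 1581 and 1742 CPM in WT OIR, 1372, 1294 and 1419 CPM in Casp1 KO normoxia and 1756, 2072 and 1715 CPM in Casp1 KO OIR. Casp1 KO normoxia lay below the other 3 groups. Aldoa changed by 0.45 ± 0.06 in OIR under the label Casp1 KO (adjusted p = 1.54e-10) and by 0.01 ± 0.11 under the label WT (adjusted p = 0.979). The difference of 0.42 ± 0.12 was not called (adjusted p = 0.0601), but was in 6 of 21 alternatives, DESeq2, the newer quasi-likelihood method and the fits without WT normoxia 3, WT OIR 1 or 3 or Casp1 KO OIR 3 (lowest adjusted p 0.00146). In normoxia it was lower under the label Casp1 KO (-0.32 ± 0.06, adjusted p = 5.29e-05), a call that was lost with the likelihood ratio test and with all 12 libraries fitted (highest adjusted p 0.0643). Aldoc, the aldolase of neural tissue, was at 314, 398 and 394 CPM in WT normoxia and 262, 268 and 260.2 CPM in WT OIR without overlap, and at 325, 315 and 308 and 288, 332 and 266 CPM under the label Casp1 KO. Its change of -0.50 ± 0.13 (adjusted p = 0.0042) was lost without WT normoxia replicate 2 (adjusted p = 0.106) or 3 (adjusted p = 0.106). The change under the other label was -0.08 ± 0.09 (adjusted p = 0.695).

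Tpi1, the triose phosphate isomerase (chromosome 6 from 124810586 to 124814296), was at 319, 286 and 302 CPM in WT normoxia, 235, 267 and 231 CPM in WT OIR, 239.9, 229 and 248 CPM in Casp1 KO normoxia and 264, 295 and 285 CPM in Casp1 KO OIR. OIR libraries were lower than normoxia under the label WT and higher under the label Casp1 KO, in both cases without overlap. Neither change was called (-0.32 ± 0.13, adjusted p = 0.184, and 0.25 ± 0.09, adjusted p = 0.0901), and their difference was, at 0.54 ± 0.16 (adjusted p = 0.0498). That call was lost in 14 of 21 alternatives, 8 of which left out 1 library, any except WT normoxia 2, WT OIR 2 and 3 and Casp1 KO OIR 1 (highest adjusted p 0.195). The call of a lower level under the label Casp1 KO in normoxia (-0.33 ± 0.09, adjusted p = 0.0138) was lost in 6 of 16 alternatives, without WT normoxia replicate 1 or 3 or Casp1 KO normoxia replicate 2 or 3 among them (highest adjusted p 0.22).

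**Figure D3:**
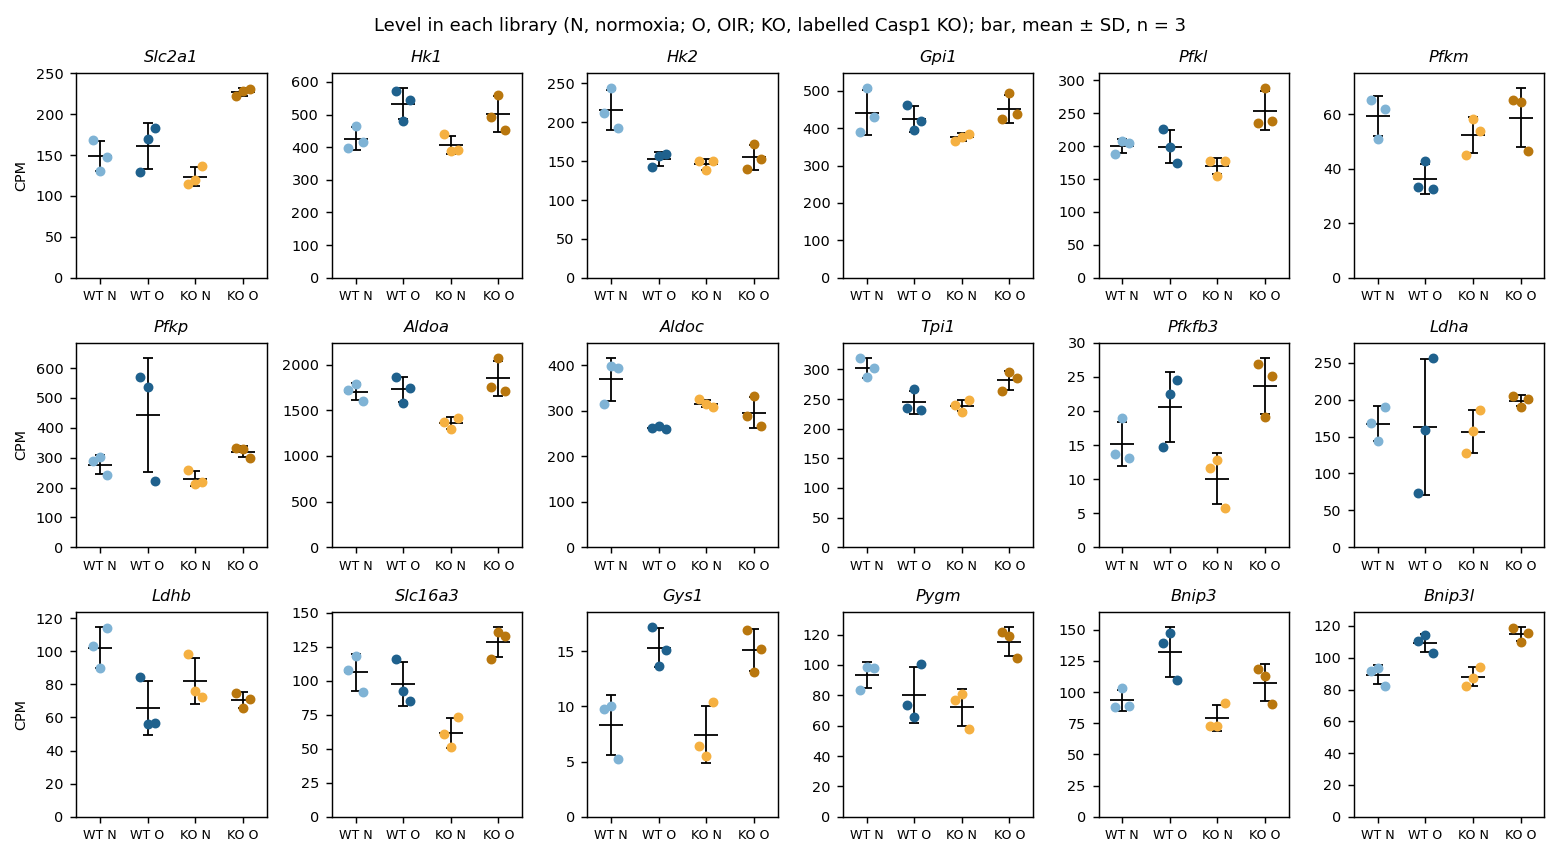
Level in CPM of the 18 members called in at least 1 of the 5 comparisons, in each library (points), with the mean ± SD of 3 libraries (bars), each panel from 0. Slc2a1, Pfkl, Slc16a3 and Pygm had their highest mean in Casp1 KO OIR, Hk2 had its highest in WT normoxia, and Pfkp and Ldha spread widest in WT OIR.

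Pfkfb enzymes set the level of fructose 2,6-bisphosphate, a strong activator of phosphofructokinase. Pfkfb3, the hypoxia-induced kinase of this family, was at 13.7, 18.9 and 13.05 CPM in WT normoxia and 14.7, 22.5 and 24.5 CPM in WT OIR, which overlap (0.41 ± 0.27, adjusted p = 0.544). Under the label Casp1 KO it went from 11.7, 12.8 and 5.80 to 26.9, 19.1 and 25.1 CPM without overlap. This change, 1.24 ± 0.28 (adjusted p = 0.000548), was the largest of the 13 called. The difference between the changes was 0.81 ± 0.39 (adjusted p = 0.468). Pfkfb2, at 195 to 233 CPM, had more reads than Pfkfb3 in every library and was called in no comparison, and Pfkfb4 stayed at 0.49 to 8.71 CPM.

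In lower glycolysis, none of Gapdh, Pgk1, Pgam1, Eno1, Eno2 and Pkm was called in any comparison. Eno2, the neuronal enolase, came closest under the label WT, from 488, 503 and 427 to 400.4, 364 and 355 CPM (-0.35 ± 0.12, adjusted p = 0.0855), and Pkm under the label Casp1 KO, from 1697, 1449.5 and 1600.1 to 1716, 1940.3 and 1703 CPM (0.19 ± 0.06, adjusted p = 0.0527). In both cases the groups did not overlap. Pkm was called higher there in 4 of 16 alternatives, the newer quasi-likelihood method, the replicate block and the fits without Casp1 KO normoxia replicate 1 or OIR replicate 3 (lowest adjusted p 0.0231). Eno2 was called lower under the label WT with DESeq2, with all 12 libraries fitted and without WT OIR replicate 3 (lowest adjusted p 0.026). Gapdh was at 24.98, 41.98 and 66.9 CPM in the 3 WT OIR libraries, and was called lower there without WT OIR replicate 3 (-0.61, adjusted p = 0.0371).

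Among the lactate genes, Slc16a3 (MCT4, chromosome 11 from 120948480 to 120960868), which exports lactate, was at 108, 118 and 91.8 CPM in WT normoxia, 116, 92.1 and 84.7 CPM in WT OIR, 61.1, 51.1 and 72.9 CPM in Casp1 KO normoxia and 116, 136 and 133 CPM in Casp1 KO OIR. Casp1 KO normoxia lay below the other 9 libraries, and Casp1 KO OIR lay level with or above the highest of WT OIR. The change in OIR was 1.06 ± 0.12 under the label Casp1 KO (adjusted p = 6.55e-15) and -0.14 ± 0.15 under the label WT (adjusted p = 0.694). Their difference of 1.18 ± 0.20 (adjusted p = 1.46e-06) was the largest called among the members. In normoxia Slc16a3 was lower under the label Casp1 KO (-0.78 ± 0.13, adjusted p = 5.90e-07), and in OIR the difference was 0.40 ± 0.15 (adjusted p = 0.29).

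Ldha, the lactate dehydrogenase subunit known as a HIF target, was at 169, 144 and 190.5 CPM in WT normoxia and 73.5, 159 and 257 CPM in WT OIR, so that the 3 WT OIR libraries spanned the lowest and the highest level of all 12. In the groups labelled Casp1 KO it went from 127, 158 and 185 to 205, 189.9 and 201 CPM without overlap (0.36 ± 0.10, adjusted p = 0.0106), a call lost in 4 of 16 alternatives, without Casp1 KO normoxia replicate 1 or OIR replicate 1 among them (highest adjusted p 0.413). Under the label WT the change was -0.04 ± 0.14 (adjusted p = 0.923) and moved between -0.52 and 0.30 over the alternatives, with a call only without WT OIR replicate 3 (-0.52, adjusted p = 0.00142). Ldhb, which favours the return of lactate to pyruvate, was at 103, 89.7 and 114 CPM in WT normoxia and 84.5, 55.97 and 56.9 CPM in WT OIR without overlap, and at 98.1, 75.8 and 72.2 and 74.9, 65.5 and 71.2 CPM under the label Casp1 KO. It fell under the label WT (-0.65 ± 0.16, adjusted p = 0.00236). This call was lost without WT normoxia replicate 3 (adjusted p = 0.081) or WT OIR replicate 2 (adjusted p = 0.081). The change under the other label was -0.21 ± 0.13 (adjusted p = 0.522).

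No gene of the gate from pyruvate into mitochondria was called in any comparison. Pdk1 and Pdk3, kinases that shut pyruvate dehydrogenase, stayed at 23.5 to 37.8 and 32.9 to 61.6 CPM, and Pdha1, the subunit they phosphorylate, at 37.3 to 78.0 CPM. Pdk1, a HIF target, was at 24.1, 23.8 and 27.05 CPM in Casp1 KO normoxia and 33.8, 30.2 and 37.8 CPM in Casp1 KO OIR, which do not overlap (0.46 ± 0.21, adjusted p = 0.27).

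Both glycogen genes rose under the label Casp1 KO. Pygm, the muscle-type glycogen phosphorylase (chromosome 19 from 6384399 to 6398459), was at 83.5, 98.5 and 98.3 CPM in WT normoxia, 73.5, 65.9 and 101 CPM in WT OIR, 76.9, 81.05 and 57.96 CPM in Casp1 KO normoxia and 122, 119 and 104 CPM in Casp1 KO OIR. Casp1 KO OIR lay above the other 3 groups. The changes were 0.69 ± 0.12 (adjusted p = 3.39e-06) under the label Casp1 KO and -0.23 ± 0.15 (adjusted p = 0.544) under the label WT, and they differed by 0.90 ± 0.20 (adjusted p = 0.00191). Gys1, the glycogen synthase outside the liver, was at 9.77, 10.01 and 5.22 CPM in WT normoxia and 17.1, 13.6 and 15.1 CPM in WT OIR, and at 6.38, 5.52 and 10.4 and 16.9, 13.1 and 15.2 CPM under the label Casp1 KO. OIR libraries lay above normoxia under both labels, with changes of 0.83 ± 0.33 (adjusted p = 0.18) and 1.03 ± 0.34 (adjusted p = 0.0487). Only the second was called, and that call was lost in 9 of 16 alternatives, 5 of which left out 1 library, Casp1 KO normoxia 1 or 2 or any of Casp1 KO OIR (highest adjusted p 0.213).

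The mitophagy receptors, which mark mitochondria for removal, had higher mean levels in OIR under both labels. Bnip3 was at 88.3, 103 and 88.7 CPM in WT normoxia and 139, 147 and 109.9 CPM in WT OIR without overlap, and at 73.1, 73.2 and 91.5 and 119, 113 and 90.7 CPM under the label Casp1 KO, where 1 OIR library lay within normoxia. The changes were 0.48 ± 0.15 (adjusted p = 0.0298) and 0.45 ± 0.12 (adjusted p = 0.00939), and their difference was -0.05 ± 0.19 (adjusted p = 1). The call under the label WT was lost in 7 of 16 alternatives, without WT normoxia replicate 1 or 3 or WT OIR replicate 1 or 2 among them (highest adjusted p 0.271). That under the label Casp1 KO was lost in 6 of 16, without replicate 1 or 2 of either group among them (highest adjusted p 0.153). Bnip3l was at 91.8, 93.8 and 82.4 CPM in WT normoxia and 110.2, 114 and 103 CPM in WT OIR, and at 82.2, 87.4 and 94.2 and 119, 109.9 and 116 CPM under the label Casp1 KO, again without overlap. It was called under the label Casp1 KO (0.40 ± 0.12, adjusted p = 0.0245) and not under the label WT (0.28 ± 0.15, adjusted p = 0.448). The call was lost in 6 of 16 alternatives, without Casp1 KO normoxia replicate 1 or 2 or OIR replicate 1 or 3 among them (highest adjusted p 0.188).

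Among carbonic anhydrases, which handle the acid that glycolysis makes, Car9 had 0, 0 and 0 reads in WT normoxia, 0, 3 and 0 in WT OIR, 0, 0 and 0 in Casp1 KO normoxia and 3, 0 and 8 in Casp1 KO OIR, so that no fold change is given. Its reads were found only in OIR libraries, 3 of 6. Car12 ran from 1.69 to 10.2 CPM. Of the remaining HIF targets, Ankrd37 (8.84 to 22.3 CPM), a small ankyrin protein, and P4ha1 (34.3 to 57.8 CPM) and P4ha2 (0.97 to 8.98 CPM), collagen prolyl hydroxylase subunits, were called in no comparison. In all, 17 of the 35 members were called in none of the 5 comparisons.

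Since isozymes of 1 step moved differently, their shares of the family's reads were compared, which do not depend on scaling between libraries. Hk2 took 33.7% ± 1.71 (SD, n = 3) of the hexokinase reads in WT normoxia, 22.3% ± 2.34 in WT OIR, 26.5% ± 1.18 in Casp1 KO normoxia and 23.6% ± 1.52 in Casp1 KO OIR. Its share was lower in OIR without overlap under both labels, by 11.3 points under the label WT. Aldoc took 17.8% ± 2.17 of the aldolase reads in WT normoxia and 13.3% ± 1.10 in WT OIR, and 18.8% ± 0.90 and 13.8% ± 0.34 in the groups labelled Casp1 KO. The aldolase shift thus went the same way under both labels, through lower Aldoc under one and higher Aldoa under the other. Pfkm took 11.1% ± 1.72 of the phosphofructokinase reads in WT normoxia and 5.71% ± 1.80 in WT OIR, which do not overlap, and 11.7% ± 2.15 and 9.23% ± 1.19 under the label Casp1 KO, which do. Pfkp took 68.8%, 68.9% and 51.8% in the 3 WT OIR libraries, and 47.6% to 53.8% in the other 9. Ldhb took 53.5%, 26.05% and 18.1% of the lactate dehydrogenase reads in WT OIR, 37.4% to 38.4% in WT normoxia, 28.02% to 43.5% in Casp1 KO normoxia and 25.6% to 26.8% in Casp1 KO OIR. In OIR its mean share dropped by 8.50 points under the label Casp1 KO, without overlap. With 3 libraries against 3, an exact two-sided permutation test cannot give a p below 0.1, the value it gave wherever 2 groups did not overlap.

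**Figure D4:**
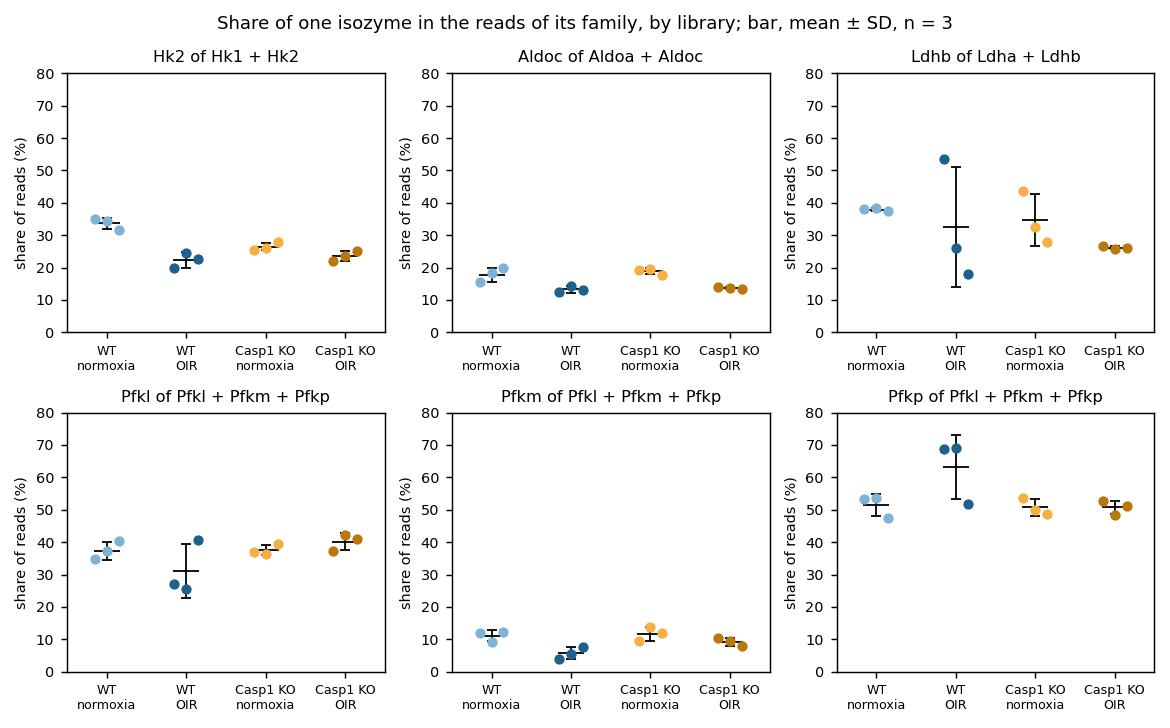
Share of one isozyme in the reads of its family (percent) in each library (points), with the mean ± SD of 3 libraries (bars). Hk2 and Aldoc took a smaller share in OIR under both labels without overlap, Pfkm did so under the label WT and Ldhb under the label Casp1 KO, and the Pfkp and Ldhb shares of the 3 WT OIR libraries lay far apart.

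The wider pathway was followed with 84 further genes in 6 lists. Under the label WT, 8 of the 81 tested were called (9.88%, against 3.88% of all genes), 4 each way. Under the label Casp1 KO, 18 of 79 were (22.8%, against 4.64%), 14 higher and 4 lower. Other hypoxia targets made up most of the rises, 4 of 20 tested under the label WT and 11 of 20 under the label Casp1 KO, where 1.58% and 2.61% of all genes were higher. Vegfa, the main angiogenic ligand, was at 88.1, 90.2 and 83.1 CPM in WT normoxia and 185, 169.8 and 118 CPM in WT OIR, and at 78.03, 67.7 and 68.8 and 146, 126 and 142 CPM under the label Casp1 KO. It rose by 0.84 ± 0.15 (adjusted p = 1.51e-06) and 0.96 ± 0.12 (adjusted p = 4.71e-13). Adm, the vasodilator adrenomedullin, had 0, 0 and 0 reads in WT normoxia and 32, 38 and 8 in WT OIR, at least 59.2-fold higher against a floor of 3 reads over the group, or at least 18.5-fold without WT normoxia replicate 2, the deepest library. It had 3, 1 and 3 and 22, 9 and 26 reads under the label Casp1 KO (adjusted p = 0.0317), where the low normoxia counts allow no firm fold and the call was lost in 7 of 14 alternatives, without any 1 of those libraries except OIR replicate 2 among them. Egln3, a HIF prolyl hydroxylase, was at (normoxia, then OIR) 4.09, 2.49 and 0.43 and 13.2, 14.4 and 6.18 CPM under the label WT (2.21 ± 0.47, adjusted p = 0.000257) and 1.28, 0 and 2.66 and 6.45, 3.72 and 11.1 CPM under the label Casp1 KO (2.38 ± 0.61, adjusted p = 0.00403), the latter lost without Casp1 KO normoxia replicate 2 (adjusted p = 0.0504) or OIR replicate 3 (adjusted p = 0.195). Ndufa4l2, which lowers respiratory complex I activity in hypoxia, was at 2.49, 1.47 and 0.22 and 8.08, 9.39 and 11.4 CPM under the label WT and 0.91, 0.58 and 0.48 and 11.3, 8.54 and 7.61 CPM under the label Casp1 KO, and rose under both (adjusted p = 5.45e-05 and 4.30e-07).

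Ddit4, Ak4, Mxi1, Ndrg1, Egln1, P4hb and Hmox1 were called under the label Casp1 KO and not under the label WT, all higher, and Tfrc, the transferrin receptor, was lower there (-0.46 ± 0.12, adjusted p = 0.00346), though not without OIR replicate 2 (adjusted p = 0.069). Ddit4, Ak4, Mxi1, Ndrg1 and Hmox1 were called under every alternative that tested them, while Egln1 lost the call in 5 of 16 and P4hb in 3 of 16 alternatives. Of these, Ddit4, an inhibitor of mTOR signalling, was also called in the test of the difference between labels (0.60 ± 0.15, adjusted p = 0.0168), the single one of the 81 genes tested there. That is 1.23%, near the 1.13% of all genes called in that test. Ddit4 was at 251, 316 and 297 CPM in WT normoxia, 257, 306 and 319.8 CPM in WT OIR, 208, 253 and 231 CPM in Casp1 KO normoxia and 362, 385 and 321 CPM in Casp1 KO OIR. This call was lost in 8 of 21 alternatives, without WT normoxia 2, WT OIR 1, Casp1 KO normoxia 1 or 3 or Casp1 KO OIR 2 among them (highest adjusted p 0.133). For the other genes a change called under one label is not shown to differ from that under the other.

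Monocarboxylate transport gave 1 call of 5 genes under the label WT, where 3.88% of all genes were called, and 3 of 5 under the label Casp1 KO, where 4.64% were. Bsg (basigin), the partner that carries lactate transporters to the membrane, was at 368, 316 and 329.6 CPM in Casp1 KO normoxia and 520.3, 468 and 489 CPM in Casp1 KO OIR, a rise of 0.56 ± 0.08 (adjusted p = 1.21e-09), and changed by 0.05 ± 0.12 under the label WT (adjusted p = 0.899). Slc16a8, the lactate transporter of the pigment epithelium, was at 17.5, 18.01 and 19.6 CPM in Casp1 KO normoxia and 32.02, 42.3 and 26.5 CPM in Casp1 KO OIR (0.89 ± 0.22, adjusted p = 0.00317), in the group where the pigment epithelium markers were highest, and the part of these cells was not tested. Without Casp1 KO OIR replicate 2 it was not called (adjusted p = 0.153). Emb (embigin), the second partner of such transporters, fell under both labels, with log2 fold changes of -0.90 ± 0.23 (adjusted p = 0.0045) and -0.98 ± 0.23 (adjusted p = 0.00111), the first not called without WT normoxia replicate 3 (adjusted p = 0.0527) and the second not without Casp1 KO OIR replicate 1 (adjusted p = 0.106).

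Of 17 genes of the TCA cycle, which oxidises what pyruvate dehydrogenase supplies, 1 was called under the label WT (5.88%, against 3.88% of all genes) and 3 under the label Casp1 KO (17.6%, against 4.64%). The share over all genes is larger without low counts: with filterByExpr, a stricter filter, 1050 of 13228 genes were called under the label Casp1 KO. Idh3a fell under the label WT (-0.50 ± 0.14, adjusted p = 0.0169). Under the label Casp1 KO Sdha rose (0.31 ± 0.10, adjusted p = 0.0286), and Sucla2 (-0.48 ± 0.14, adjusted p = 0.0169) and Mdh1 (-0.25 ± 0.08, adjusted p = 0.0359) fell. Each of these 4 calls was lost in some alternatives, Idh3a in 5 of 16, Sdha in 7 of 16, Sucla2 in 2 of 16 and Mdh1 in 7 of 16, with single libraries left out among them in each case. Mpc2, a subunit of the mitochondrial pyruvate carrier, was called lower under the label WT (-0.46 ± 0.15, adjusted p = 0.0471) and lost the call in 12 of 16 alternatives. Pygb, the brain glycogen phosphorylase, was called lower under the label WT (-0.57 ± 0.18, adjusted p = 0.0355) and lost the call in 10 of 16. None of the 14 tested isozymes outside the 35 members was called in any of the 5 comparisons.

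**Figure D5:**
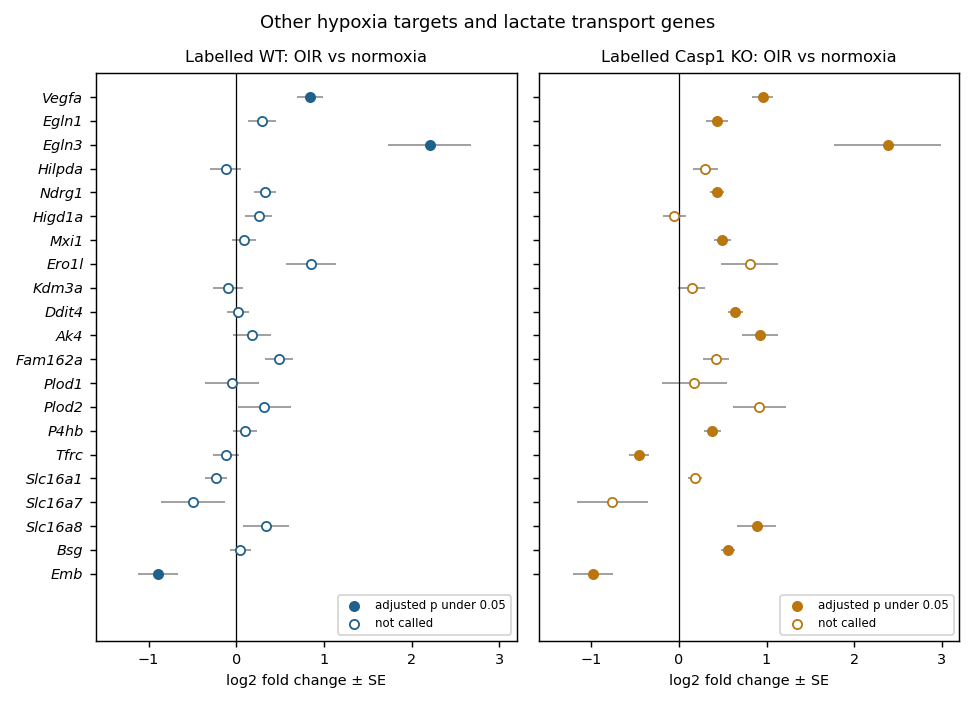
Log2 fold change in OIR (points) with its standard error (bars) for 16 other hypoxia targets and 5 genes of monocarboxylate transport, under the labels WT (left) and Casp1 KO (right). Vegfa and Egln3 rose and Emb fell under both labels, while Ddit4, Ak4, Mxi1, Ndrg1, Egln1, P4hb, Slc16a8 and Bsg were called higher on the right and not on the left.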

How the data were processed

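RNA of whole mouse retina was made into 3' end libraries (QuantSeq FWD). According to the submitters' processing notes, reads were aligned to mm10 with STAR 2.7.5a and counted per gene with HTSeq 0.6.1. The authors deposited raw read counts, 1 column per library, with no normalization, and the strand setting and handling of reads with several matches were not given in the sources used here. The labels mapped all 12 columns to a group, and 0 columns were left unused.

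Counts were analysed with edgeR 4.0.16 in R 4.3.3. Genes with at least 1 read over the libraries fitted were scaled by TMM and tested with edgeR's quasi-likelihood test (the legacy method), and p-values were adjusted over all genes tested by Benjamini-Hochberg. A gene was called at an adjusted p under 0.05. Each of the 4 pairwise comparisons was fitted on its own 6 libraries, and the difference between the OIR changes as an interaction on all 12, so that the interaction shares libraries with both comparisons. Fold changes are on the log2 scale with their standard errors (SE), positive when higher in OIR, in the libraries labelled Casp1 KO, or, for the interaction, when the OIR change was more positive under that label. The SE is derived from the test statistic, so in the pairwise comparisons it holds almost nothing of the spread of that gene's own libraries. In WT OIR against normoxia it was 0.14 for Ldha, at 73.5 to 257 CPM in WT OIR. It was 0.13 for Pfkfb2, at 230 to 233 CPM in WT OIR. CPM are counts scaled to 1000000 reads of the TMM-scaled library total. Shares of isozymes were compared with exact two-sided permutation tests. The procedure was run on simulated counts for the OIR comparison of each label, to check that the largest changes came back with the right sign. Each simulated gene had the spread of genes at its level, and no library stood apart. That run therefore cannot speak to genes with a wider spread or to a library such as WT OIR replicate 3. The alternatives were other scalings, DESeq2 1.42.0, a likelihood ratio test, the newer quasi-likelihood method, 2 stricter filters on low counts, a block for the replicate number, a fit to all 12 libraries, a fold threshold and leaving out each library. A larger prior count was also among the alternatives counted for single genes. It alters the fold change and not the p-value, so it could not lose a call.

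Members called in any comparison are described with the value in each library, and the other members by range. Genes outside the members are counted by list and named where called in OIR or in the interaction. The members and lists were chosen with earlier results of these data known. Gene positions and 3' ends come from GENCODE vM21 (GRCm38) and promoters from RefSeq (GRCm38.p6), with no entry matched for Bnip3l and Slc2a3. Counting error alone sets the floor of 3 reads.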

Additional observations from a re-analysis of the deposited data

Results flagged for a closer look

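The change in OIR differed between the labels in a direct test of the difference, the interaction in edgeR's quasi-likelihood fit to all 12 libraries, for 6 members. The difference was 1.18 ± 0.20 (SE) on the log2 scale for Slc16a3 (adjusted p = 1.46e-06), 0.90 ± 0.20 for Pygm (adjusted p = 0.00191) and 0.76 ± 0.17 for Slc2a1 (adjusted p = 0.00259), and these 3 were called under every alternative run except the fold threshold. It was 0.87 ± 0.24 for Pfkm (adjusted p = 0.0331), 0.59 ± 0.16 for Pfkl (adjusted p = 0.0354) and 0.54 ± 0.16 for Tpi1 (adjusted p = 0.0498), and these 3 lost the call in 13, 11 and 14 of 21 alternatives.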

How the results depend on the processing

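The number of members called in WT OIR against normoxia was 6. It ran from 2 to 10 with a library left out (2 without WT normoxia replicate 3, 10 without WT OIR replicate 3) and was 0 with a minimum absolute log2 fold change of 1. Under the label Casp1 KO it was 13, 7 with all 12 libraries in 1 fit, 3 with the fold threshold and 8 to 12 with a library left out (8 without Casp1 KO normoxia replicate 2). Between labels in normoxia it was 4, 2 with the likelihood ratio test and with all 12 libraries fitted, 0 with the fold threshold and 3 to 5 with a library left out. Between labels in OIR it was 3, 1 with DESeq2 and with the newer quasi-likelihood method, and 0 with the likelihood ratio test, with filterByExpr, with at least 10 counts in every library, with the replicate block and with the fold threshold. With a library left out it ran from 0 to 5 (0 without replicate 1 or 2 of either OIR group, 1 without Casp1 KO OIR replicate 3, 5 without WT OIR replicate 3). For the interaction it was 6, 3 with the likelihood ratio test, with both stricter filters and with the replicate block, 1 with the fold threshold and 3 to 10 with a library left out. Of 59 gene results named, 24 were called under every alternative other than the fold threshold, 35 lost the call at least once and 0 changed direction, and the cause of these differences was not tested. These 59 were all called in the main fit, so their steady direction does not extend to other results. Members not called there could change sign, as Ldha did in WT OIR (-0.52 to 0.30).

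Same-numbered libraries did not deviate together (correlations of -0.05 to 0.07 over 11039 genes), so the numbers were not taken to pair libraries. With the replicate block the count was 5 under the label WT, 14 under the label Casp1 KO and 4 in normoxia, besides the values above. Adm, Egln3, Ndufa4l2 and Hmox1 had too few reads to be tested under 1 or both stricter filters. Over all genes, the calls in WT OIR numbered 886, and 705 with DESeq2, 681 with the likelihood ratio test, 1075 with the newer quasi-likelihood method, and 586 and 603 with the stricter filters (filterByExpr and at least 10 counts). Those between labels in OIR numbered 131, and 82, 54, 144, 16 and 17 in the same order. Depth limits Car9, Pfkfb4, Adm, Egln3 and Ndufa4l2, whose counts fell to 3 reads or fewer in some libraries.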
